A study of Mus musculus with 40 samples.

Results

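Among the 11323 genes listed in the deposited tables, 47 named genes of the DNA damage response and of DNA repair were followed by symbol. They were assigned to 7 classes by their textbook roles: break sensing and checkpoint signalling (12 genes), homologous recombination (7), end joining (3), mismatch repair (5), base excision and single-strand break repair (10), nucleotide excision repair (5), and crosslink repair and helicases (5). Their transcripts were measured in mouse oocytes and zygotes, in total RNA and in RNA from a polysome fraction. The 5 cell groups were IMZ, zygotes for which both maturation and fertilization took place in vitro, and IVZ, their counterparts with both steps in vivo, then IVM, denuded oocytes put through in vitro maturation, COC, oocytes that went through it inside their cumulus-oocyte complexes, and IVO, oocytes of in vivo maturation. Each group had 4 libraries in each fraction, 40 in all. Both zygote groups were at the pronuclear stage. The labels give no strain, age, hormone treatment or number of pooled cells, and leave the origin of the replicates unstated, so p-values measure only the spread between these libraries, which may be technical. For COC the labels leave unstated whether cumulus cells were removed before lysis.

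A fully grown oocyte is transcriptionally silent, so meiotic maturation, fertilization and the first cell cycle draw on stored maternal messenger RNA, part of which is degraded along the way. The zygote also receives a sperm genome with lesions that only maternal products can repair. Breaks in DNA are sensed by the MRN complex and the ATM and ATR kinases, which signal to checkpoint kinases and recruit the recombination or end-joining machinery. Damaged or mismatched bases are removed by the excision pathways, and base excision repair factors are known to act in the paternal pronucleus of the mouse zygote. Messenger RNA in the polysome fraction carries several ribosomes and is taken as being translated.

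The values are RPKM, reads scaled to gene length and to the reads mapped in the library, so levels can be set side by side between genes. Depth, recovered from the steps between the values, was 46.62 to 63.22 M reads in total RNA and an estimated 3.14 to 38.93 M in polysomal RNA. Replicates ranked genes alike in total RNA, with Spearman correlations of 0.983 to 0.997, and less so in polysomal RNA, with 0.666 to 0.960. Over the 47 genes the coefficient of variation within a group had a median of 7.37% in total RNA and 37.6% in polysomal RNA, so the polysomal values carry far wider errors. A gene appears in a table when it reached 0.2 RPKM in each of the 8 libraries there. By that filter 46 of the 47 genes were listed in each total RNA table, and all 47 in that of IVM against COC. The polysomal tables listed 31 for IMZ and IVZ, 31 for IVM and IVO, 32 for IVM and COC, and 43 for COC and IVO, and 25 genes were in all 8 tables. The 2 polysomal libraries that the authors excluded, IVM replicate 1 and IVZ replicate 1, are kept here. All 14 oocyte markers checked were listed in every group. Their summed RPKM in total RNA was lower in zygotes, with 3896 to 4722 in IMZ and 4052 to 4262 in IVZ. It was 6381 to 6810 in IVM, 5652 to 6135 in COC and 5749 to 6222 in IVO. None of 8 blood markers was listed, and 3 of 19 cumulus and granulosa markers were, Cyp19a1, Nr5a2 and Serpine2, with summed total RPKM of 111 to 118 in IMZ, 103 to 109 in IVZ, 92.4 to 104 in IVM, 100.2 to 113 in COC and 105 to 129 in IVO. In polysomal RNA 2 of the cumulus and granulosa markers were listed, Nr5a2 and Serpine2. Their median sum was 82.0 RPKM in IMZ, 107 in IVZ, 46.0 in IVM, 56.8 in COC and 42.2 in IVO. All values are relative to the RNA in a library. In such bulk samples fewer cells of a type and less RNA per cell cannot be told apart.

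In total RNA the repair genes were mostly well expressed. Over the 5 groups, 33 of the 46 genes measured in all of them lay above the median gene, which stood at 6.95 RPKM, and the median repair gene stood at 12.8 RPKM. The 5 highest all belonged to break signalling or mismatch repair. Rnf8 and Rnf168, ubiquitin ligases that mark chromatin next to a break, averaged 78.7 and 71.1 RPKM over the groups. Msh6, the partner that recognizes single-base mismatches, averaged 62.4 RPKM. Chek1, the checkpoint kinase acting below ATR, averaged 61.6 RPKM, and Rad50 of the MRN complex averaged 52.6 RPKM. The apical kinases themselves were far lower. Atr averaged 4.69 RPKM, its partner Atrip 1.95 RPKM and Atm 1.37 RPKM. Chek2, the kinase acting below ATM, was the lowest of the class with 0.66 RPKM.

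Within homologous recombination the breast cancer genes led. Brca2 averaged 33.8 RPKM and Brca1 31.4 RPKM, against 5.47 RPKM for Rad54l, the translocase at the bottom of that class. In end joining, Xrcc6 and Xrcc5, the 2 subunits of the Ku heterodimer, averaged 24.9 and 19.9 RPKM, and the ligase Lig4 averaged 15.4 RPKM. Among genes measured in all 5 groups break signalling spanned the widest range, from 0.66 RPKM for Chek2 to 78.7 RPKM for Rnf8. With Mlh3, listed in 2 groups only, mismatch repair spanned more as a ratio. Below Msh6 came Msh3 with 22.2 RPKM, the exonuclease Exo1 with 15.95 RPKM and Pms2 with 2.46 RPKM, and Mlh3 stood near the listing minimum. Mlh3 had 0.348, 0.251, 0.297 and 0.343 RPKM in IVM libraries, against 0.254, 0.253, 0.212 and 0.304 RPKM in COC libraries, and was not listed elsewhere.

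Base excision repair was led by Xrcc1, the scaffold of single-strand break repair, with 33.3 RPKM, and by Ung, which removes uracil from DNA, with 32.2 RPKM. Ogg1, which removes oxidized guanine, was the lowest of that class with 4.73 RPKM. In nucleotide excision repair Ercc3, a helicase of TFIIH, was highest with 18.5 RPKM and Ercc1, a subunit of the incising nuclease, lowest with 1.36 RPKM. In crosslink repair Blm led with 13.6 RPKM and Fancd2 was lowest with 6.82 RPKM. Most of these levels barely moved between groups. The highest group mean over the lowest had a median of 1.19 over the 46 genes, beside 1.296 over 10660 genes. It passed 1.5 in 6 repair genes (13.0%), Xrcc1, Ercc1, Atr, Chek2, Xrcc5 and Parp2, beside 24.2% of all genes.

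**Figure D1:**
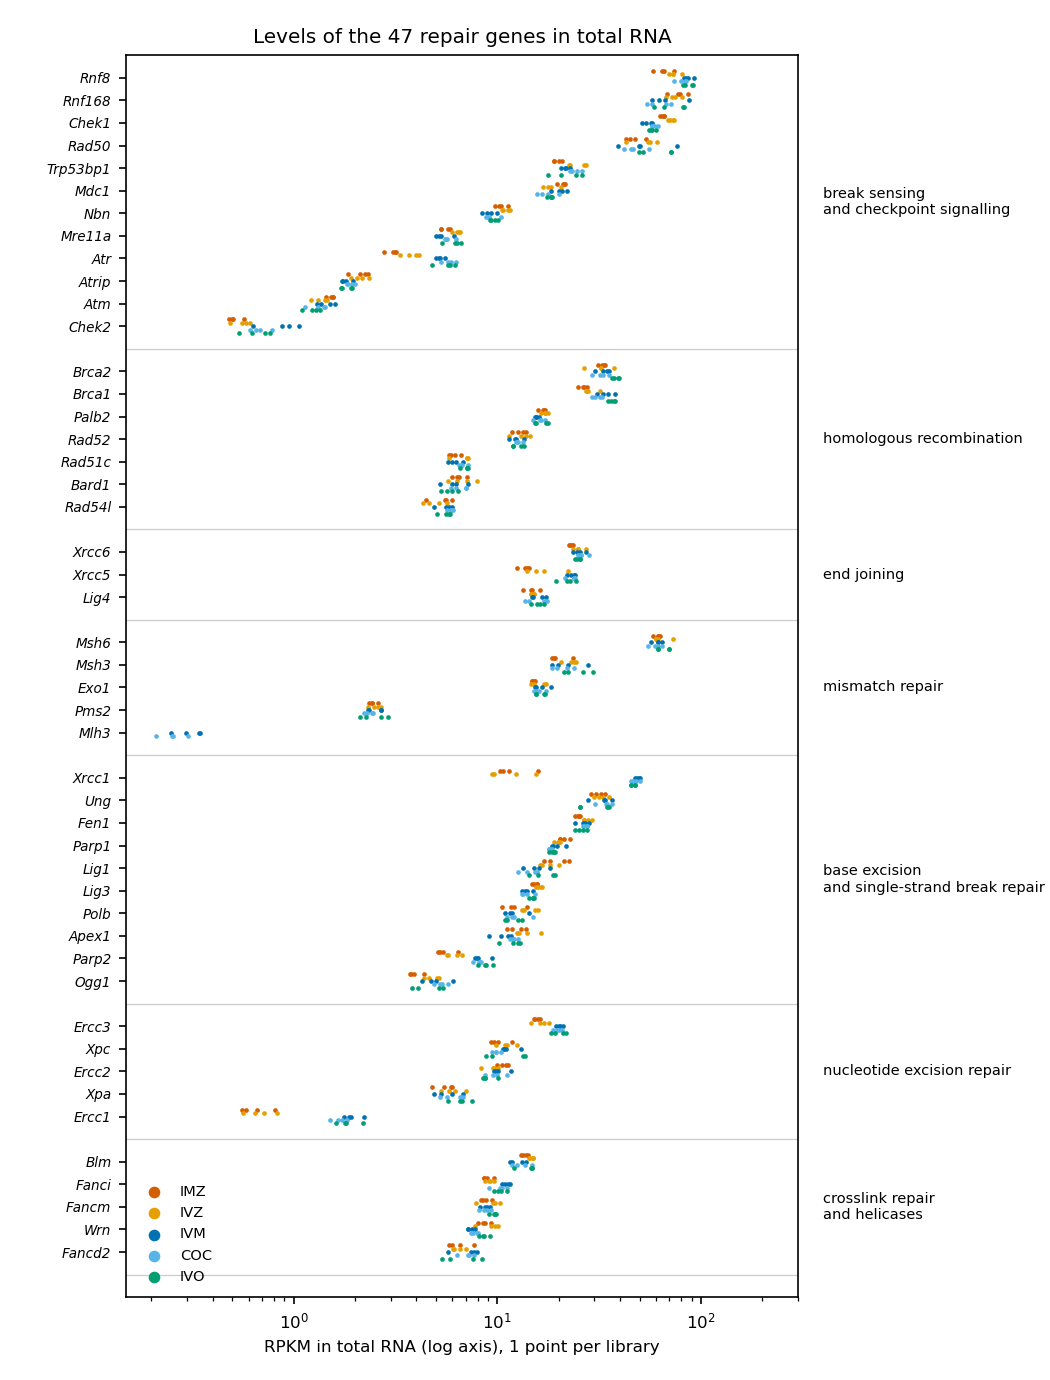
RPKM of the 47 repair genes in total RNA on a log axis, 1 point per library and 1 colour per cell group, by repair class and ordered by mean level. Points of the 5 groups overlap for most genes, while the zygote points (IMZ and IVZ) of Xrcc1, Ercc1 and Atr lie below all oocyte points. Mlh3 was listed in IVM and COC libraries only.

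Zygotes were compared with oocytes of like maturation, to ask which stored repair transcripts differ across fertilization. The standout was Xrcc1. It had 9.41, 12.4, 15.6 and 9.65 RPKM in IVZ zygotes, against 47.2, 45.2, 47.4 and 45.2 RPKM in IVO oocytes. All zygote libraries were below all oocyte libraries, and the mean was 3.94-fold lower in zygotes. The difference was -1.92 (SE 0.14, limma adjusted p = 9.66e-06) on the log2(RPKM + 1) scale, which understates the change of low genes. The pair matured in vitro gave nearly the same picture, with 10.3, 10.7, 15.8 and 11.4 RPKM in IMZ zygotes, against 48.04, 46.3, 45.3 and 50.3 RPKM in COC oocytes. There the log2 difference was -1.91 (SE 0.11, limma adjusted p = 8.90e-07), a 3.93-fold lower mean in zygotes.

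Between IVZ zygotes and IVO oocytes 6 of 46 repair genes passed an adjusted p of 0.05, 5 lower and 1 higher in zygotes. That is 13.0% of them, beside 16.2% of the 10674 genes tested (14.1% lower, 2.12% higher), a share near the background. The median log2 difference was 0.0079 over the repair genes and -0.019 over all genes.

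Ercc1 was the second of the 5. It had 0.564, 0.832, 0.643 and 0.718 RPKM in IVZ zygotes, against 1.79, 2.18, 1.802 and 1.61 RPKM in IVO oocytes, again with no overlap. Its log2 difference was -0.75 (SE 0.081, limma adjusted p = 0.000132), and these levels rest on at least 102 reads per zygote library. Parp2, a poly(ADP-ribose) polymerase activated by strand breaks, had 6.700, 5.64, 6.37 and 5.75 RPKM in IVZ zygotes, against 8.76, 8.71, 9.58 and 8.01 RPKM in IVO oocytes, with a log2 difference of -0.46 (SE 0.086, limma adjusted p = 0.00436). The groups did not overlap, and the zygote mean was 1.43-fold lower.

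Atr had 3.68, 3.31, 4.11 and 3.98 RPKM in IVZ zygotes, against 4.76, 5.703, 5.89 and 6.22 RPKM in IVO oocytes, and differed by -0.48 (SE 0.097, limma adjusted p = 0.0071) on the log2 scale. Brca1, which acts with Bard1 in recombination and checkpoint control, had 27.8, 27.2, 32.1 and 27.5 RPKM in IVZ zygotes, against 36.1, 34.8, 37.6 and 37.99 RPKM in IVO oocytes. Its log2 difference was -0.35 (SE 0.075, limma adjusted p = 0.01), and both genes kept zygotes below oocytes in every library. Chek1 was the only repair gene called higher. It had 73.02, 68.6, 70.5 and 74.2 RPKM in IVZ zygotes, against 55.4, 57.7, 60.3 and 56.9 RPKM in IVO oocytes, with a log2 difference of 0.31 (SE 0.066, limma adjusted p = 0.00876). Atr and Chek1, a kinase and its direct target, thus lay on opposite sides. All 6 calls held with any 1 library left out. Ercc3, Xrcc5 and Brca2 missed the threshold (limma adjusted p = 0.0543, 0.0956 and 0.124) and passed it with 1 library left out. Ercc3 did so without IVZ replicate 3 or IVO replicate 2 (limma adjusted p = 0.0486 and 0.0478). Xrcc5 did so without IVZ replicate 2 (0.0101), and Brca2 without IVZ replicate 3 (0.0463).

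Between IMZ zygotes and COC oocytes 16 of 46 repair genes were called, 12 lower and 4 higher in zygotes. That is 34.8% of them, beside 37.4% of all genes (26.4% lower, 11% higher). The 5 genes called lower in the in vivo pair were all called lower here as well, 83.3% of the 6 and 31.3% of the 16. Over all genes, 1534 were called in both pairs, 88.6% of the in vivo calls and 38.4% of the in vitro calls, and 1532 of them in the same direction. The pairs share no library.

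Xrcc5 joined the lower genes. It had 14.3, 12.5, 13.6 and 14.1 RPKM in IMZ zygotes, against 21.4, 23.9, 23.96 and 23.9 RPKM in COC oocytes, with a log2 difference of -0.73 (SE 0.064, limma adjusted p = 1.06e-05) and no overlap. Atr had 3.13, 2.78, 3.19 and 3.09 RPKM in IMZ zygotes, against 5.27, 6.24, 5.702 and 5.92 RPKM in COC oocytes, a difference of -0.74 (SE 0.071, limma adjusted p = 1.89e-05). Ercc1 had 0.555, 0.583, 0.662 and 0.8100 RPKM in IMZ zygotes, against 1.51, 1.72, 1.66 and 1.83 RPKM in COC oocytes, a difference of -0.70 (SE 0.067, limma adjusted p = 1.90e-05). For these 3 genes each zygote library lay below each oocyte library.

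Smaller differences ran through the excision and signalling classes. Parp2 averaged 5.53 ± 0.599 RPKM in IMZ zygotes and 8.07 ± 0.308 RPKM in COC oocytes (SD, n = 4 each), a log2 difference of -0.48 (SE 0.076, limma adjusted p = 0.000636). Ercc3 averaged 15.6 ± 0.526 RPKM in IMZ zygotes and 19.8 ± 0.816 RPKM in COC oocytes, a difference of -0.32 (SE 0.055, limma adjusted p = 0.00109). Ogg1 averaged 3.94 ± 0.286 RPKM in IMZ zygotes and 5.299 ± 0.363 RPKM in COC oocytes, with -0.35 (SE 0.072, limma adjusted p = 0.00326). These genes cover a strand-break sensor, a helicase of TFIIH and a glycosylase, and none of them overlapped between groups.

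Trp53bp1, a mediator that favours end joining, averaged 19.7 ± 0.8396 RPKM in IMZ zygotes and 24.2 ± 1.41 RPKM in COC oocytes, with a log2 difference of -0.28 (SE 0.06, limma adjusted p = 0.00399). Against IVM oocytes its call was lost. Brca1 averaged 26.4 ± 1.02 RPKM in IMZ zygotes and 30.98 ± 1.497 RPKM in COC oocytes, with -0.22 (SE 0.056, limma adjusted p = 0.00993), and Rnf8 averaged 65.7 ± 6.44 RPKM in IMZ zygotes and 80.4 ± 5.03 RPKM in COC oocytes, with -0.29 (SE 0.077, limma adjusted p = 0.0134). Both lost their call under median-of-ratios scaling.

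Lig1, the ligase of DNA replication and long-patch repair, was the clearest of the higher genes. It had 21.2, 18.2, 16.99 and 22.5 RPKM in IMZ zygotes, against 15.7, 13.9, 12.6 and 15.4 RPKM in COC oocytes, with a log2 difference of 0.43 (SE 0.097, limma adjusted p = 0.00606). Parp1, the main poly(ADP-ribose) polymerase, averaged 21.2 ± 1.23 RPKM in IMZ zygotes and 18.2 ± 0.276 RPKM in COC oocytes, with 0.21 (SE 0.057, limma adjusted p = 0.0151). In both genes all zygote libraries lay above all oocyte libraries, and Parp1 lost its call against IVM oocytes (limma adjusted p = 0.288), with the replicate block (0.0524) and with the length trend removed (0.051). The remaining 4 calls were Mdc1 and Rnf168, higher by 0.24 and 0.31, and Xrcc6 and Chek2, at -0.18 and -0.15 log2. Each of these 4 lost its call without any of several single libraries. Adjusted p by limma then ranged from 0.0533 to 0.0708 for Mdc1 (without IMZ replicate 1, 3 or 4 or COC replicate 1, 3 or 4) and from 0.0575 to 0.0784 for Rnf168 (without IMZ replicate 1, 3 or 4 or COC replicate 1 or 2). For Xrcc6 it ranged from 0.0505 to 0.0766 (without IMZ replicate 2, 3 or 4 or COC replicate 2 or 4) and for Chek2 from 0.0614 to 0.0954 (without IMZ replicate 1, 3 or 4 or COC replicate 1, 3 or 4). Chek1 stood at the threshold here, with a log2 difference of 0.14 (SE 0.05, limma adjusted p = 0.0501), and passed it without COC replicate 3 (limma adjusted p = 0.0285).

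The split of calls in this pair depends on the scaling. Median-of-ratios scaling moved it to 9 higher and 8 lower, beside 18.5% higher and 22.1% lower over all genes, and no called gene changed direction. The lower calls of Xrcc1, Xrcc5, Atr, Ercc1, Parp2, Ercc3 and Ogg1 held under all alternatives, as did the higher call of Lig1. With IVM in place of COC oocytes 3 genes were called higher and 11 lower, beside 8.87% and 27.4% of all genes.

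**Figure D2:**
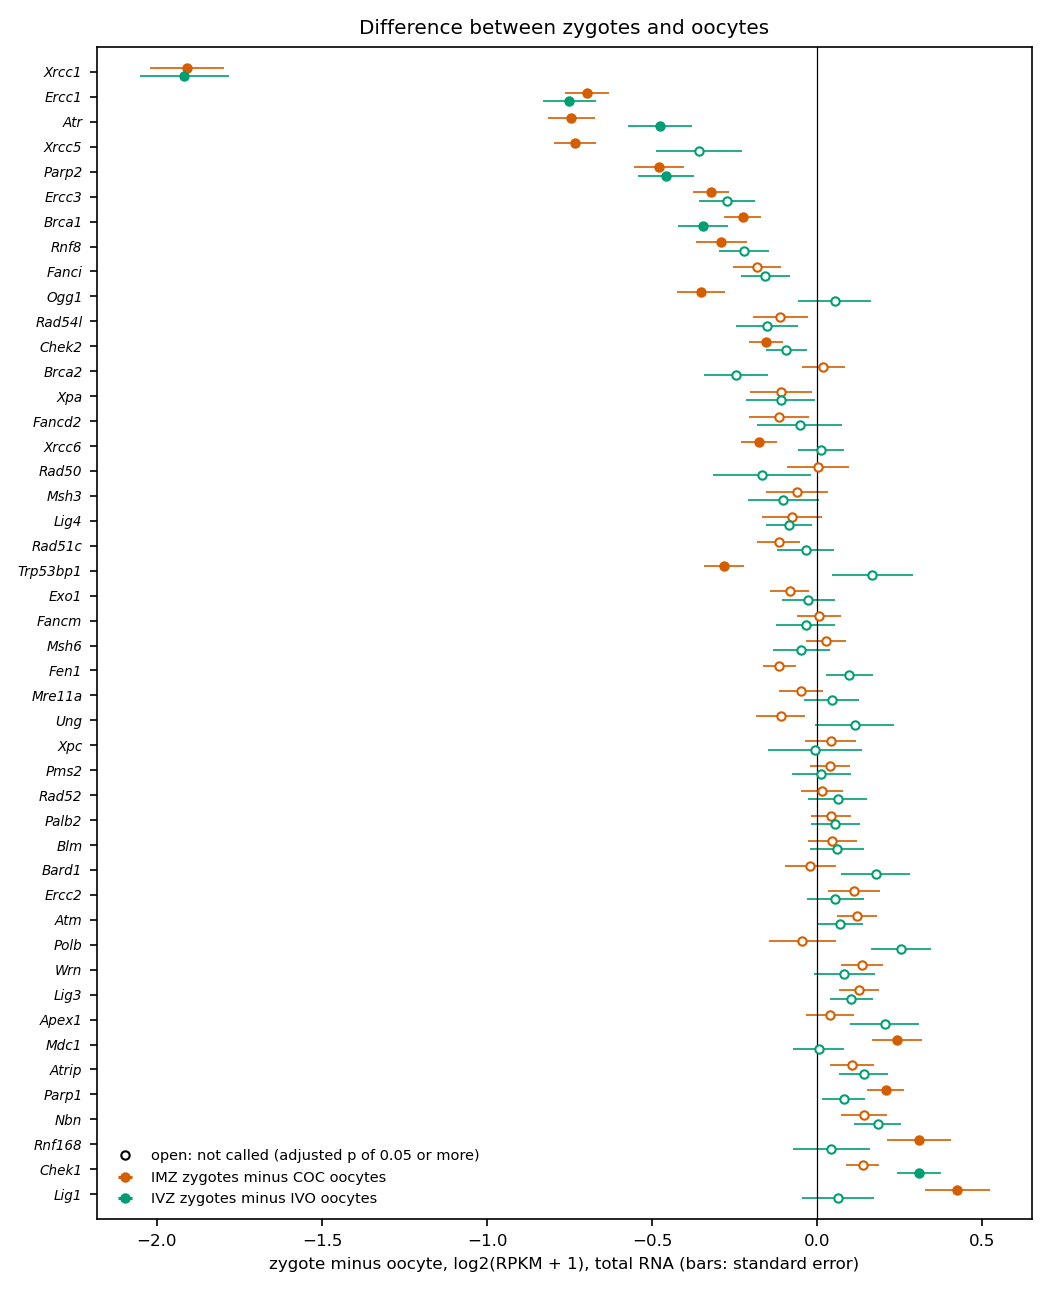
Zygote minus oocyte difference in total RNA on the log2(RPKM + 1) scale for 46 repair genes, with standard errors, for IMZ minus COC (orange) and IVZ minus IVO (green). Filled points passed an adjusted p of 0.05. Xrcc1 lies near -1.9 in both pairs, apart from all other genes, and most points are within 0.3 of 0.

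**Figure D3:**
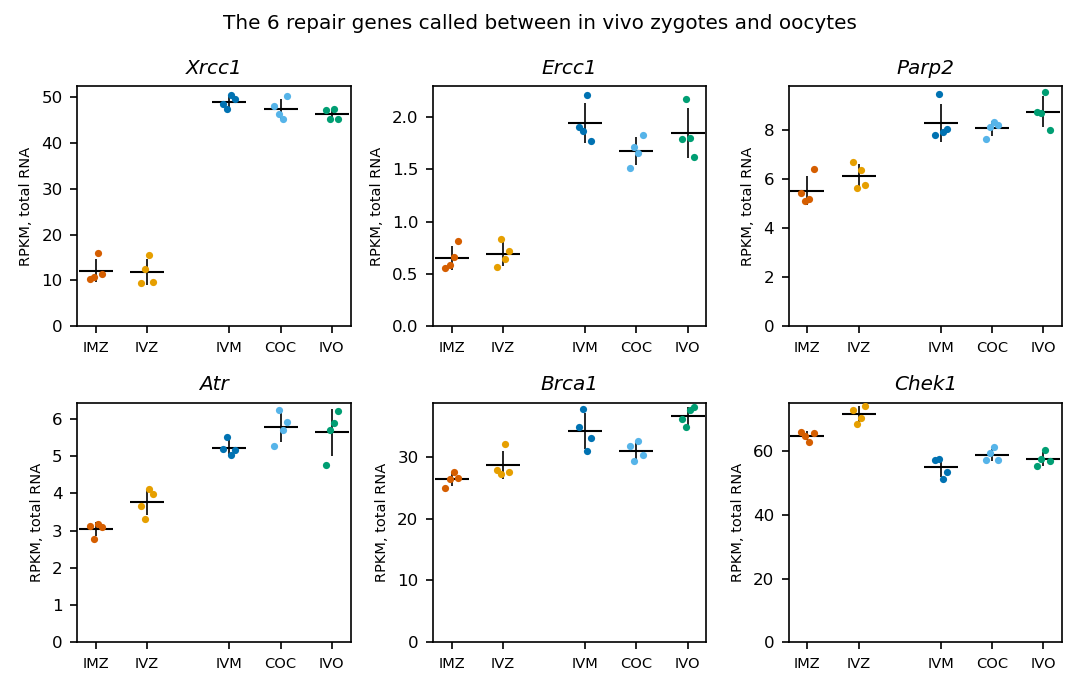
RPKM per library in total RNA of the 6 repair genes called between IVZ zygotes and IVO oocytes, in all 5 groups, with the mean and SD (n = 4). The IMZ and IVZ points of Xrcc1, Ercc1, Parp2 and Atr lie below those of the 3 oocyte groups. Chek1 was called higher in IVZ than in IVO, and was not called between IMZ and COC (limma adjusted p = 0.0501).

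A further test asked whether the zygote minus oocyte difference itself depends on maturation (IMZ minus COC, less IVZ minus IVO). No repair gene passed, beside 0.187% of all genes, and 11 of 46 had an unadjusted p under 0.05 (23.9% beside 9.31% of all genes). The smallest belonged to Trp53bp1, with a difference of log2 differences of -0.45 (SE 0.14, limma adjusted p = 0.28). Ogg1 followed with -0.40 (SE 0.13, limma adjusted p = 0.303), Fen1, the flap endonuclease, with -0.21 (SE 0.077, limma adjusted p = 0.38), and Xrcc5 with -0.38 (SE 0.15, limma adjusted p = 0.421). Xrcc5 and the other genes called in 1 pair are therefore not shown to differ between the pairs. In polysomal RNA this test called no repair gene and no gene at all, with 0 of 30 and 382 of 5946 under an unadjusted p of 0.05.

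The in vitro and in vivo zygotes were next compared with each other in total RNA. No repair gene passed an adjusted p of 0.05 between IMZ and IVZ, beside 1.66% of the 10824 genes tested. Of the 46 genes, 12 had an unadjusted p under 0.05, 10 of them lower in IMZ, which is 26.1% beside 18.9% of all genes. The median log2 difference was -0.071 over the repair genes and -0.0017 over all genes, and 35 of 46 were negative. Trp53bp1 was nearest to the threshold. It had 20.8, 19.02, 20.1 and 19.1 RPKM in IMZ zygotes, against 26.8, 22.7, 22.5 and 27.3 RPKM in IVZ zygotes. The groups did not overlap, and the log2 difference was -0.31 (SE 0.077, limma adjusted p = 0.0689). It passed without IVZ replicate 2 (limma adjusted p = 0.0418) and with the trend on gene length removed (0.0384). It also passed from the authors' deposited table after Benjamini-Hochberg adjustment of its p-values, with a log2 fold change of -0.35 and an adjusted p of 0.0119. Part of Trp53bp1 (15% of its exonic bases) overlaps Tubgcp4 on the other strand, which averaged 1.20 RPKM in total RNA.

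Atr had 3.13, 2.78, 3.19 and 3.09 RPKM in IMZ zygotes, against 3.68, 3.31, 4.11 and 3.98 RPKM in IVZ zygotes, with a log2 difference of -0.24 (SE 0.079, limma adjusted p = 0.152). Ogg1 had 4.35, 3.76, 3.904 and 3.74 RPKM in IMZ zygotes, against 4.62, 5.04, 4.35 and 5.17 RPKM in IVZ zygotes, with -0.23 (SE 0.078, limma adjusted p = 0.157). Polb, the polymerase of short-patch base excision repair, had 12.1, 10.6, 11.7 and 13.97 RPKM in IMZ zygotes, against 15.9, 15.3, 13.2 and 13.5 RPKM in IVZ zygotes, with -0.24 (SE 0.09, limma adjusted p = 0.184). Atr did not overlap between the groups, whereas Ogg1 and Polb did. In all, 8 of the 46 genes had groups that did not overlap, 17.4% beside 11% of all genes.

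Oocytes matured in vitro were then set against those matured in vivo. No repair gene was called in total RNA between IVM and IVO, beside 0.509% of all genes, between COC and IVO, beside 0.00911%, or between IVM and COC, beside 0.0448%. Unadjusted p-values under 0.05 numbered 2 of 46, 3 of 46 and 3 of 47, beside 1198 of 10996, 777 of 10981 and 630 of 11152 over all genes. The first 2 comparisons share the IVO libraries and the last shares IVM and COC libraries with them. Between IVM and IVO the helicase Wrn had 7.51, 7.73, 7.196 and 7.19 RPKM in IVM oocytes, against 9.24, 8.63, 8.504 and 8.11 RPKM in IVO oocytes, with a log2 difference of -0.19 (SE 0.069, limma adjusted p = 0.34). Brca2 had 33.03, 34.6, 30.1 and 35.4 RPKM in IVM oocytes, against 37.5, 39.4, 36.5 and 39.2 RPKM in IVO oocytes, with -0.19 (SE 0.071, limma adjusted p = 0.353). Neither gene overlapped between the groups. The next were Chek2 and Ercc2, with log2 differences of 0.17 (SE 0.081) and 0.18 (SE 0.085).

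Between COC and IVO Brca1 had the smallest p. It had 31.8, 29.3, 32.6 and 30.3 RPKM in COC oocytes, against 36.1, 34.8, 37.6 and 37.99 RPKM in IVO oocytes, with no overlap and a log2 difference of -0.24 (SE 0.062, limma adjusted p = 0.627). Brca2 had 35.2, 33.2, 29.3 and 31.9 RPKM in COC oocytes and differed from IVO by -0.23 (SE 0.07, limma adjusted p = 0.659). Rad50 and Lig1 came next at -0.35 (SE 0.14) and -0.22 (SE 0.11). Between IVM and COC the 4 smallest p-values were those of Trp53bp1, Xpc, Mdc1 and Apex1, with log2 differences of -0.16 (SE 0.063), 0.18 (SE 0.077), 0.21 (SE 0.087) and -0.17 (SE 0.081). Xpc is the damage sensor of global nucleotide excision repair, and Apex1 the endonuclease that cuts at abasic sites.

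In polysomal RNA no repair gene was called in any of the 4 deposited comparisons, and neither was any other gene by limma (0%). Unadjusted p-values under 0.05 were found for 1 of 31 repair genes in IVM against IVO, 3 of 43 in COC against IVO, 2 of 32 in IVM against COC and 0 of 31 in IMZ against IVZ. Over all genes there were 152 of 5093, 394 of 7527, 223 of 5018 and 360 of 6336. The errors were wide. The authors' deposited table of IVM against IVO held 1 repair gene past an adjusted p of 0.05, Polb, with a log2 fold change of -1.60 and an adjusted p of 0.0211. Its RPKM were 14.1, 2.06, 6.67 and 4.02 in IVM libraries, against 6.42, 19.4, 12.2 and 9.72 in IVO libraries, the first IVM value being the library the authors excluded, and the groups overlapped with or without it. The limma difference over all 8 libraries was -0.90 (SE 0.50, limma adjusted p = 0.985).

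The 4 smallest p-values in each polysomal comparison belonged to genes with overlapping groups, except Fanci in COC against IVO and in IMZ against IVZ, and Xrcc6 in IVM against COC. Apex1 had 19.3, 51.3, 22.99 and 29.3 RPKM in COC oocytes, against 16.6, 7.03, 7.99 and 35.6 RPKM in IVO oocytes, a log2 difference of 1.01 (SE 0.45, limma adjusted p = 0.834). Fanci, a subunit of the complex that is ubiquitinated in crosslink repair, had 6.31, 5.15, 4.78 and 4.85 RPKM in COC oocytes, against 1.88, 3.83, 2.75 and 3.01 RPKM in IVO oocytes, with 0.72 (SE 0.33, limma adjusted p = 0.834). It had 4.299, 5.52, 4.75 and 5.67 RPKM in IMZ zygotes, against 0.606, 4.19, 4.26 and 2.81 RPKM in IVZ zygotes, with 0.75 (SE 0.42, limma adjusted p = 0.86). Rnf168 and Xpc followed in COC against IVO, at 0.68 (SE 0.32) and 0.62 (SE 0.36). In IVM against IVO the 4 were Lig1, Apex1, Xrcc6 and Xpc, at 1.01 (SE 0.42), 1.001 (SE 0.49), -1.07 (SE 0.54) and 0.80 (SE 0.41). In IVM against COC they were Brca1, Fen1, Xrcc6 and Lig1, at 0.96 (SE 0.40), -1.14 (SE 0.49), -0.91 (SE 0.52) and 0.68 (SE 0.43). In IMZ against IVZ they were Ercc3, Fanci, Apex1 and Ercc2, and the other 3 stood at -0.66 (SE 0.36), 0.64 (SE 0.39) and 0.81 (SE 0.54). Several of these uncalled differences moved by over 1.5 times with 1 library left out. Without IVM replicate 1, which the authors excluded, Lig1 and Xrcc6 were 0.65 and -0.46 in IVM against IVO, and Fen1, Xrcc6 and Lig1 were -0.57, -0.30 and 0.31 in IVM against COC. Without IVZ replicate 1, also excluded by the authors, Fanci was 0.36 in IMZ against IVZ. There Apex1 was 0.37 without IVZ replicate 4, and Ercc2 was 0.46 without IVZ replicate 2 and 1.33 without replicate 4.

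The lower Xrcc1 of zygotes was also seen on polysomes. It had 17.03, 14.4, 14.5 and 26.1 RPKM in IMZ zygotes, against 61.8, 92.7, 68.3 and 93.1 RPKM in COC oocytes, with no overlap and a log2 difference of -2.09 (SE 0.28, limma adjusted p = 0.000433). It was the only one of 30 repair genes called in that pair, 3.33% beside 4.04% of all genes (3.82% lower, 0.219% higher). Without COC replicate 1 Ung passed there too, at -1.003 (limma adjusted p = 0.0436). In the in vivo pair Xrcc1 had 6.41, 19.9, 16.95 and 24.2 RPKM in IVZ zygotes, against 66.9, 43.96, 48.8 and 106 RPKM in IVO oocytes. The groups did not overlap, and the difference was of the same size but missed the threshold, at -1.97 (SE 0.43, limma adjusted p = 0.0617). It passed with median-of-ratios scaling (limma adjusted p = 0.0260), and it stayed above the threshold without IVZ replicate 1, the shallowest library (adjusted p = 0.0666). No other repair gene was called between IVZ and IVO, beside 0.454% of all genes, and 3 of 30 had an unadjusted p under 0.05, beside 776 of 5946. Xpc had 6.19, 10.7, 7.07 and 6.74 RPKM in IVZ zygotes, against 2.52, 5.66, 2.03 and 1.95 RPKM in IVO oocytes, with 1.16 (SE 0.39, limma adjusted p = 0.234), and Rnf168 and Rnf8 stood at 0.99 (SE 0.40) and 0.58 (SE 0.33).

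Polysomal was then set against total RNA within each cell group, which shows how a gene's share of polysomal RNA compares with its share of total RNA. Over all genes the median log2 difference was -0.51 in IMZ, -0.38 in IVZ, -0.51 in IVM, -0.40 in COC and -0.56 in IVO, so the differences of the lower genes named with values are also given relative to that median. Median-of-ratios scaling sets it near 0. Most repair genes lay below it. Their own median was -0.72 in IMZ, -0.61 in IVZ, -1.13 in IVM, -1.03 in COC and -1.06 in IVO. In IMZ 21 of 31 were called lower and 2 higher in polysomal RNA, 74.2% beside 61.1% of all genes (46% lower, 15.1% higher). In IVZ 14 of 31 were lower and 0 higher, 45.2% beside 41% (30.1% lower, 10.9% higher). In IVM 20 of 31 were lower and 3 higher, 74.2% beside 54.3% (39.3% lower, 15% higher). In COC 32 of 43 were lower and 5 higher, 86.0% beside 67.9% (44.5% lower, 23.4% higher). In IVO 31 of 43 were lower and 0 higher, 72.1% beside 59.6% (45.5% lower, 14.1% higher). With median-of-ratios scaling the lower and higher calls numbered 12 and 5 in IMZ, 9 and 1 in IVZ, 9 and 4 in IVM, 22 and 5 in COC, and 19 and 3 in IVO, and no called gene changed direction. The lower and higher shares of all genes were then 25.1% and 27.2% in IMZ, 16.8% and 17.8% in IVZ, 18.8% and 23.0% in IVM, 30.4% and 32.0% in COC, and 23.7% and 25.7% in IVO. A gene had to reach 0.2 RPKM in all polysomal libraries of its table to be counted, so those listed are not all 47.

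Of the 25 genes tested in all 5 groups, 10 were called lower in each of them, 40% beside 27.1% of the 4377 genes tested in all 5. They were Chek1, Rad50, Mdc1, Trp53bp1 and Rnf168 of break signalling, Brca2, the mismatch repair pair Msh3 and Msh6, Parp1, and the helicase Wrn. With median-of-ratios scaling Msh6, Rad50, Rnf168, Trp53bp1 and Wrn were still called lower in all 5 groups, 20% beside 11.3% of all genes. With the trend on gene length removed, described further on, Chek1, Msh6, Rad50, Rnf168 and Wrn were, 20% beside 18.7%. Leaving out any 1 total RNA library of IVM ended the call of Msh3 in IVM (limma adjusted p of 0.0501 to 0.0698), as did IVZ total replicate 1, 3 or 4 in IVZ (0.0528 to 0.0575). Parp1 lost its call in IVZ without any 1 of the total RNA libraries or polysomal replicate 3 or 4 (0.0872 to 0.119). Msh6 had 13.3, 11.98, 11.8 and 20.3 RPKM in polysomal RNA, against 61.5, 61.9, 57.9 and 63.3 RPKM in total RNA of IMZ zygotes, a log2 difference of -2.05 (SE 0.19, limma adjusted p = 1.73e-05), or -1.54 relative to the median gene. In IVO oocytes it had 10.2, 20.96, 17.4 and 16.7 RPKM in polysomal RNA, against 69.96, 61.7, 69.96 and 61.9 RPKM in total RNA, with -1.99 (SE 0.23, limma adjusted p = 6.05e-05), or -1.43 relative to the median gene. Every polysomal library lay below every total RNA library in both groups.

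Rnf168 had 8.75, 9.34, 13.8 and 18.2 RPKM in polysomal RNA, against 81.9, 58.8, 82.6 and 65.7 RPKM in total RNA of IVO oocytes, a 5.77-fold lower mean and a log2 difference of -2.48 (SE 0.25, limma adjusted p = 4.08e-05), or -1.92 relative to the median gene. Brca1 was 5.04-fold lower in COC oocytes, with 4.74, 4.64, 8.895 and 6.32 RPKM in polysomal RNA, against 31.8, 29.3, 32.6 and 30.3 RPKM in total RNA. Its log2 difference was -2.199 (SE 0.20, limma adjusted p = 1.06e-05), or -1.79 relative to the median gene, and it was not listed in polysomal RNA of zygotes. Brca2 had 2.46, 7.47, 6.59 and 9.91 RPKM in polysomal RNA, against 32.1, 26.7, 37.6 and 32.5 RPKM in total RNA of IVZ zygotes, with -2.23 (SE 0.34, limma adjusted p = 0.00124), or -1.85 relative to the median gene. None of these 3 genes overlapped between the fractions.

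The classes were then taken one by one. In COC oocytes 9 of 10 break signalling genes were lower (median -1.31), as were 5 of 5 of crosslink repair (median -1.79), 5 of 7 of recombination (median -1.24), 3 of 3 of end joining (median -1.21) and 4 of 4 of mismatch repair (median -0.88). Of base excision repair 4 of 10 were lower and 4 higher (median -0.37), and of nucleotide excision repair 2 of 4 were lower and 1 higher (median -0.56). In IVO oocytes the same counts were 10 of 10, 5 of 5, 4 of 7, 2 of 3, 3 of 4, 5 of 10 and 2 of 4 lower, and none higher. Over all genes 44.5% were lower and 23.4% higher in COC (median -0.40), and 45.5% and 14.1% in IVO. Without some single libraries 6 of the COC calls were lost (Exo1, Pms2, Bard1, Rad51c, Lig3 and Parp2) and 3 in IVO (Exo1, Ogg1 and Xpa). With the length trend removed, Exo1 and Pms2 of mismatch repair were not called in COC (limma adjusted p = 0.567 and 0.52).

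Of the 25 genes, 4 lay above 0 in all 5 groups, namely Apex1, Ung, Xrcc1 and Ercc2, 16% beside 22.9% of all genes. Of these, 3 belong to base excision repair, but Lig3, Lig1 and Parp1 of that class lay below the median gene in all 5. With the length trend removed only Ung, Xrcc1 and Ercc2 were above 0 in all 5, 12% beside 19.1%. Apex1 had 19.3, 51.3, 22.99 and 29.3 RPKM in polysomal RNA, against 12.1, 11.97, 11.5 and 12.6 RPKM in total RNA of COC oocytes, a log2 difference of 1.18 (SE 0.26, limma adjusted p = 0.00207). It was called higher in IMZ and IVM as well, with 1.08 and 1.35. In IVZ and IVO the differences were 0.30 (SE 0.32) and 0.19 (SE 0.41) with overlapping groups. With the length trend removed Apex1 turned to -0.59 in IVZ and -0.71 in IVO, and its calls in IMZ and IVM were lost (limma adjusted p = 0.635 and 0.35). An opposite-strand gene, Pip4p1, overlaps 61.7% of the Apex1 exons and averaged 1.62 RPKM in total RNA. Per the labels the kit was stranded, but the strand setting of the counting is not given in the sources used here. Reads of such pairs may therefore have been counted together.

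Ung had 38.5, 71.1, 67.5 and 91.9 RPKM in polysomal RNA, against 34.3, 34.7, 30.2 and 36.7 RPKM in total RNA of COC oocytes, with a log2 difference of 0.90 (SE 0.23, limma adjusted p = 0.00476). In IVM oocytes the difference was 0.84 (SE 0.24, limma adjusted p = 0.0162). Xrcc1 had 96.4, 60.2, 78.4 and 76.1 RPKM in polysomal RNA, against 48.6, 47.5, 50.4 and 49.6 RPKM in total RNA of IVM oocytes, with 0.64 (SE 0.18, limma adjusted p = 0.0154), and differed by 0.70 (SE 0.16, limma adjusted p = 0.00234) in COC oocytes. In the other groups Ung and Xrcc1 were not called, at 0.25, 0.33 and 0.67 for Ung and 0.52, 0.38 and 0.43 for Xrcc1 in IMZ, IVZ and IVO. Several passed with 1 polysomal library left out. Xrcc1 did so in IMZ without replicate 2 or 3 (limma adjusted p = 0.0428 and 0.0496), in IVZ without replicate 1, which the authors excluded (0.0187), and in IVO without replicate 2 (0.0458). Ung did so without replicate 2 in IVZ (limma adjusted p = 0.0406) and in IVO (0.00409).

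Ercc2, the second helicase of TFIIH, had 12.2, 24.2, 29.3 and 44.7 RPKM in polysomal RNA, against 11.1, 10.02, 8.69 and 9.49 RPKM in total RNA of COC oocytes, with 1.27 (SE 0.32, limma adjusted p = 0.00441). It was also called in IMZ, at 1.004 (SE 0.34, limma adjusted p = 0.0245), a call lost without IMZ polysomal replicate 1 or 4 or total replicate 1 or 4, where the limma adjusted p was 0.0813, 0.0718, 0.0502 and 0.0566. In IVM it passed without polysomal replicate 1, which the authors excluded, with 1.46 (limma adjusted p = 0.00108), and in IVO without polysomal replicate 2, with 1.398 (limma adjusted p = 0.00276). Its polysomal values spread widely, and the antisense gene Gm26852 overlaps 24.6% of its exons. Fen1 was called higher in COC oocytes, with 49.00, 51.99, 33.9 and 51.2 RPKM in polysomal RNA, against 26.6, 27.6, 26.4 and 27.7 RPKM in total RNA, and 0.74 (SE 0.16, limma adjusted p = 0.00179). With median-of-ratios scaling it was also called in IMZ, at 0.59 (limma adjusted p = 0.0118). An antisense gene, Gm10143, overlaps 78.8% of its exons.

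Ercc1 was outside these fits, since its only polysomal values were in the table of IVM against COC. There it had 1.002, 9.77, 5.13 and 6.75 RPKM in polysomal RNA, against 1.91, 1.87, 2.21 and 1.77 RPKM in total RNA of IVM oocytes. In COC oocytes it had 5.64, 8.79, 5.06 and 6.51 RPKM in polysomal RNA, against 1.51, 1.72, 1.66 and 1.83 RPKM in total RNA. Apart from IVM replicate 1, which the authors excluded, polysomal values lay above all total values. In a fit over the 5013 genes of that pair of tables, added after the values were seen, the log2 difference was 1.46 (SE 0.20, limma adjusted p = 6.19e-05) in COC and 0.95 (SE 0.46, limma adjusted p = 0.107) in IVM. Of its exons 3.4% overlap Cd3eap on the other strand, which averaged 5.79 RPKM in total RNA. Chek2 and Mlh3 were listed in no polysomal table.

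**Figure D4:**
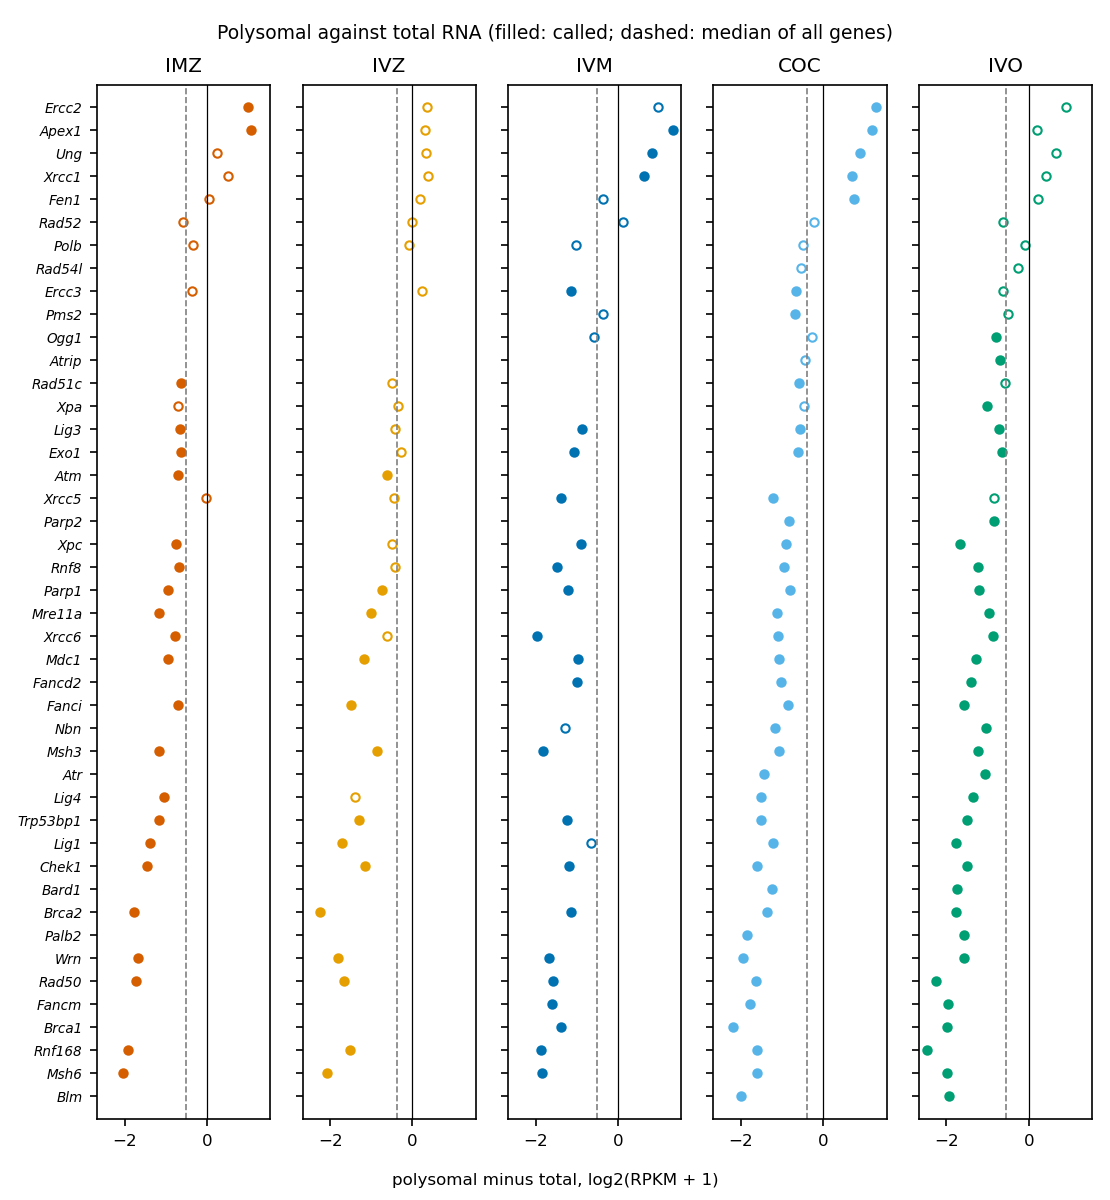
Polysomal minus total RNA on the log2(RPKM + 1) scale for 44 repair genes in the 5 cell groups, with filled points for an adjusted p under 0.05 and a dashed line at the median of all genes. Ercc2, Apex1, Ung and Xrcc1 lie above 0 in every panel, and the bottom of the plot holds Blm, Msh6, Rnf168, Brca1 and Fancm.

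The difference between fractions moved with exonic length over all genes. The Spearman correlation across genes, which are not independent replicates, was -0.43 in IMZ, -0.44 in IVZ, -0.41 in IVM, -0.43 in COC and -0.44 in IVO. In COC oocytes the shortest of 10 bins of genes (median length 1366 bases) had a median difference of 0.86, and the longest (13090.5 bases) had -0.97. The repair genes tested there had a median length of 5659 bases, beside 4672 bases for all genes tested there. With each library's trend on length removed, 27 of 43 repair genes were still lower and 3 higher in COC, and 29 and 1 in IVO, 17 and 2 in IMZ, 9 and 0 in IVZ, and 13 and 2 in IVM. Over all genes the lower and higher shares were then 38.8% and 19.1% in COC, 40.02% and 9.34% in IVO, 39.8% and 10.6% in IMZ, 22.5% and 6.92% in IVZ, and 31.1% and 10.2% in IVM. Apex1, at 1422 bases the shortest of the 47, then differed by 0.30 in COC (limma adjusted p = 0.337) and Fen1 by 0.25 (adjusted p = 0.169). The higher values of Ung, Xrcc1 and Ercc2 in COC were 1.08, 0.93 and 1.27 with the trend removed, each still called (limma adjusted p = 0.00163, 0.000416 and 0.00452). What length does to the measurement was not tested.

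**Figure D5:**
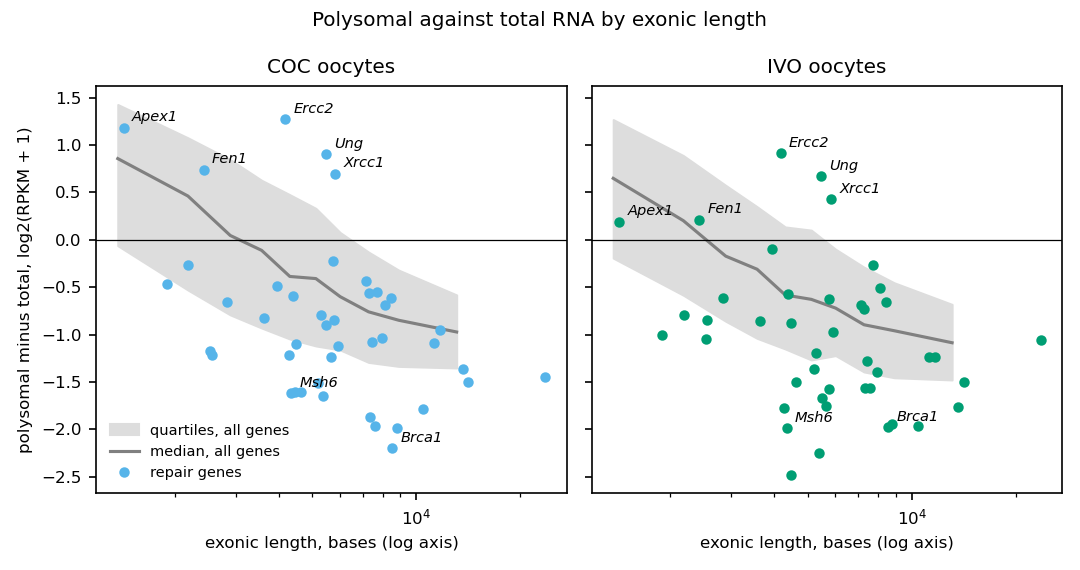
Polysomal minus total RNA on the log2(RPKM + 1) scale against exonic length (log axis) in COC and IVO oocytes. The grey line and band are the median and quartiles of all genes in 10 bins of length, and points are repair genes. Apex1 and Fen1 lie on or near the band of short genes in COC, while Ung, Xrcc1 and Ercc2 lie above the band of their length, and Msh6 and Brca1 lie below it.

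In maturing oocytes cytoplasmic polyadenylation elements near the end of a transcript, together with the polyadenylation hexamer, are known to govern the recruitment of stored messenger RNA. The 3' ends of the annotated transcripts were therefore read (GENCODE release M21, build GRCm38, sense strand only). Either of the elements TTTTAT and TTTTAAT occurred within the last 100 bases in 8 of 47 repair genes (17.02%), beside 19.5% of the 11155 listed genes and 17.1% of 20926 annotated genes. They were Bard1, Brca2, Ercc3, Fancm, Ogg1, Rad54l, Wrn and Xpc. The hexamer AATAAA or ATTAAA occurred in 37 of 47 (78.7%), beside 80.5% of listed and 76.9% of annotated genes. None of the genes higher in polysomal RNA held an element in this window. They are too few to tell that absence from the 17.02% of all repair genes. In COC oocytes 26 of the 35 repair genes without an element were called lower in polysomal RNA and 5 higher. Of the 8 with one, 6 were called lower and 0 higher. The 6 ends that follow are shown to compare 4 genes without an element with 2 that hold one, Brca2 and Xpc. Apex1, Xrcc1 and Ung were higher in polysomal RNA of COC oocytes, and Brca2 and Xpc were lower there. Parp2, which holds no element, was lower in zygotes and was also called lower in polysomal RNA of COC oocytes. Capitals mark the hexamer and, where there is one, the element, and each runs 30 bases 5' to 3'.
Apex1 (chromosome 14, last 30 bases): atccaagagaAATAAAaggccctactttca
Xrcc1 (chromosome 7, last 30 bases): caagagtttAATAAAggagactttgtttga
Ung (chromosome 5, last 30 bases): accaggctAATAAAagatggttgacaattg
Parp2 (chromosome 14, last 30 bases): attttgtttAATAAAatagtataaatctgt
Brca2 (chromosome 5, bases 38 to 9 from the end): TTTTATatacaaAATAAAcatagctttgct
Xpc (chromosome 6, bases 40 to 11 from the end): TTTTATaggacctccaggaAATAAAgcatt

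In COC oocytes the 8 repair genes with an element had a median difference between fractions of -1.07 and the 35 without one -1.03, beside -0.78 for 1469 genes with and -0.28 for 5993 genes without. The median lengths of those 2 sets of all genes were 5153 and 4595 bases. In IVO oocytes the repair genes had medians of -1.62 with and -1.05 without an element, beside -0.89 and -0.45 over all genes. No match in this window says only that these letters are not in it.

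A last fit asked whether the difference between conditions was unlike in the 2 fractions. No repair gene passed this interaction in IVM against IVO, COC against IVO or IMZ against IVZ (0% of all genes in each), nor in IVZ against IVO (0.0842% of all genes). The unadjusted count was 2 of 31, 3 of 43, 0 of 31 and 4 of 30, beside 167, 384, 311 and 646 genes in all. The smallest adjusted p was that of Xpc in IVZ against IVO, with an interaction of 1.17 (SE 0.39, limma adjusted p = 0.301). It passed without IVO polysomal replicate 2 (limma adjusted p = 0.0466), the library that stood highest in its group.

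Other repair genes, 174 on a separate list of which 163 were listed in any table, were counted in the same fits. Between IVZ and IVO in total RNA 3 of 158 were called higher and 22 lower in zygotes, 15.8% beside 16.2% of all genes. Between IMZ and COC 19 were called higher and 50 lower in zygotes, 43.7% beside 37.4%. The strongest in both pairs were Sem1, a small partner of Brca2, and Xab2, a factor of transcription-coupled repair. Sem1 averaged 10.02 RPKM in IVZ zygotes and 49.05 RPKM in IVO oocytes, a log2 difference of -2.17 (limma adjusted p = 2.70e-06). Xab2 averaged 2.02 RPKM in IVZ zygotes and 10.3 RPKM in IVO oocytes, a log2 difference of -1.93. Sem1 was also lower on polysomes in both pairs, by -1.56 in IVZ against IVO and -2.26 in IMZ against COC, like Xrcc1. Between IMZ and IVZ in total RNA 2 of 160 were called, 1.25% beside 1.66% of all genes, both lower in IMZ. They were Cdk7, the kinase of TFIIH, at -0.43 (limma adjusted p = 0.0199), and Shprh, a ubiquitin ligase of lesion bypass, at -0.36 (limma adjusted p = 0.0363). In polysomal against total RNA of COC oocytes 22 of 116 were higher and 62 lower, 72.4% beside 67.9% of all genes. The higher and lower calls were 15 and 67 of 116 in IVO (70.7% beside 59.6%) and 16 and 53 of 100 in IMZ (69% beside 61.1%). They were 11 and 40 of 100 in IVZ (51% beside 41%), and 8 and 39 of 76 in IVM (61.8% beside 54.3%). The difference between the lists was not tested.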

How the data were processed

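Per the labels, libraries were made with a stranded kit for total RNA of low input, and the submitters' processing notes name DRAGEN and the mouse build GRCm39. The authors deposited RPKM per gene and library in 8 tables of 8 libraries, each with their own log2 fold change and p-value. The test behind the authors' p-values is not given in the sources used here. Per the file headers, the authors excluded 2 polysomal libraries, IVM replicate 1 and IVZ replicate 1, after a principal component analysis. They were kept here. Values of libraries shared between tables were identical.

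Analyses used R 4.3.3 with limma 3.58.1 (trend) on log2(RPKM + 1), fitted over all genes of a table, or over genes listed for both sides of a comparison across tables, with Benjamini-Hochberg adjustment over all genes and a threshold of 0.05. The fits were checked on simulated data. Of 50 genes shifted by 1 on the log2 scale, 45 were recovered in IVM against IVO in total RNA. In IMZ against IVZ in polysomal RNA 2 of 50 were, and 34 of 50 shifted by 2. The counts for a shift of 1 were 20 of 50 between fractions in IVO and 14 of 50 in the IMZ against IVZ interaction. Shifts of 1 would thus mostly be missed in the polysomal comparison and in the interaction. For the fits between fractions the simulation is a poor guide, since it shifted few genes, whereas 59.6% of genes were called in IVO. Adjustment is less strict where many genes differ. In the real fits Lig3 was called lower in 4 of 5 groups, with differences of -0.87 to -0.43 over the 5. In all, 23 comparisons were tested. The 47 genes, their 7 classes and the list of 174 other repair genes were chosen with earlier results of these data known. Named were the called genes (at most 12 with the smallest p in full), or the 4 with the smallest p where none was called, and the highest and lowest of each class. Ercc1 and Fen1 in polysomal RNA, Polb by the authors' p-values and the genes of the printed 3' ends were chosen after their values were seen. Alternatives were a pseudocount of 0.1, a mean of at least 1 RPKM, median-of-ratios scaling, a replicate block, array weights, each library left out, all 5 groups in a fit, IVM in place of COC, and the authors' p-values. Removal of a length trend, the test between the zygote minus oocyte differences, and the fit of fractions over the IVM and COC tables were chosen after seeing the data. In no comparison did all 4 same-numbered pairs deviate together with a correlation over 0.1 (range -0.658 to 0.655, and 0.029 to 0.379 for IVZ against IVO in total RNA, where all 4 were above 0), so the numbers were not used as pairs. Exonic lengths, overlaps and 3' ends came from GENCODE release M21, and no coordinates were carried over between builds.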

Additional observations from a re-analysis of the deposited data

Results flagged for a closer look

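Of 220 sets of 4 replicates behind the described values, 13 held 1 library that stood apart from the other 3, where chance gives about 1 in 20. Over all values of the 47 genes there were 24 such sets of 413. In polysomal IVM replicate 1, which the authors excluded, Xrcc6 had 0.8799 RPKM where the next library had 9.104, and Lig1 had 21.65 RPKM where the next had 8.584. In polysomal IVO replicate 2, Xpc had 5.66 RPKM beside 2.519 in the next. In polysomal COC, Rnf168 had 18.05 RPKM in replicate 1 beside 20.27, and Fen1 had 33.95 RPKM in replicate 3 beside 49 in the next. Msh6 had 20.27 RPKM in polysomal IMZ replicate 4, beside 13.26.

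In total RNA the gaps were smaller. Msh3 had 23.52 RPKM in IMZ replicate 4, beside 19.24 in the next library. In IVZ replicate 3, Brca1 had 32.11 RPKM beside 27.82, and Msh6 had 72.59 RPKM beside 61.75. Xpc had 13.08 RPKM in IVM replicate 2, beside 10.99, and Xrcc5 had 21.45 RPKM in COC replicate 1, beside 23.87. In IVO, Ercc2 had 10.1 RPKM in replicate 4 beside 8.69, and Blm had 12.05 RPKM in replicate 1 beside 14.68.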

How the results depend on the processing

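In each comparison at most 12 called repair genes, those with the smallest p, were followed through every alternative run, 79 calls in all. Of these strongest calls 64 kept their direction and call throughout, and 15 lost the call under at least 1 alternative. Of 60 that were not called, 57 stayed so and 3 passed under at least 1, and none of the 139 reversed. Apex1 between fractions in IVZ and IVO, not among them, turned below 0 with the length trend removed. Over all calls of repair genes, 4 of 16 between IMZ and COC in total RNA were lost in at least 1 fit with 1 library left out. Between fractions the calls lost in this way were 2 of 23 in IVM, 6 of 37 in COC and 3 of 31 in IVO. They were 5 of 23 in IMZ and 5 of 14 in IVZ. Where a count moved by over 1.5 times the cause was not tested. The replicate block gave 1 gene called between IVM and IVO in total RNA (56 without it), 2 between COC and IVO (1), 1 between IVM and COC (5), 67 between IMZ and IVZ (180), 55 between IVZ and IVO in polysomal RNA (27), and 2 in the IVZ against IVO interaction (5). With it, as with median-of-ratios scaling, the length trend removed or all 5 groups in the fit, 1 repair gene (Xrcc1) was called between IVZ and IVO in polysomal RNA. All 5 groups in the fit gave 11 repair genes between IVZ and IVO in total RNA, and 160, 3 and 40 genes between IVM and IVO, COC and IVO, and IVM and COC. In polysomal RNA it gave 91 genes between IVZ and IVO and 57 between IMZ and COC. The authors' p-values gave 104 genes in IVM against IVO, 28 in COC against IVO, 34 in IVM against COC and 429 in IMZ against IVZ in total RNA, with 1 repair gene in the last (Trp53bp1). In polysomal RNA they gave 12 in IVM against IVO, 1 of them a repair gene, 25 in COC against IVO and 163 in IMZ against IVZ. Median-of-ratios scaling gave 11 genes between IVM and IVO in total RNA, 127 between IMZ and COC in polysomal RNA (240) and 13 repair genes between fractions in IVM (23). A mean of at least 1 RPKM gave 34 genes between IVM and IVO. With the length trend removed, 15 repair genes were called between fractions in IVM, 9 in IVZ and 1 between IMZ and IVZ in total RNA. IVM in place of COC oocytes left 25 genes in polysomal RNA, and array weights left 1 in the IVZ against IVO interaction.

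With 1 library left out, 7 to 52 genes were called between IVM and IVO in total RNA, at most 12 unless IVM replicate 2 was the one left out, 1 to 2 between COC and IVO, and 29 to 424 between IMZ and IVZ, fewest without IVZ replicate 4 and most without IMZ replicate 4. Repair genes called in that last comparison numbered 0 to 1. In polysomal RNA 10 to 37 genes were called between IVZ and IVO, fewest without IVO replicate 1, and 87 to 301 genes and 1 to 2 repair genes between IMZ and COC. Between fractions in IVZ 9 to 18 repair genes were called, most without polysomal replicate 1. The interactions gave 0 to 1 genes in IVM against IVO, COC against IVO and IMZ against IVZ, and 2 to 66 genes with 0 to 1 repair genes in IVZ against IVO, most without polysomal IVO replicate 2, and the test between the zygote minus oocyte differences gave 8 to 25. Polysomal libraries were shallower (a median of 15.57 M reads beside 53.7 M in total RNA) and varied more, which limits what the polysomal comparisons can show.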
